A study of Mus musculus with 6 samples.

Results

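The genes of 7 epidermal kallikreins (Klk5, Klk6, Klk7, Klk8, Klk10, Klk11 and Klk13) and of 3 inhibitors with a whey acidic protein (WAP) domain (Wfdc3, Wfdc12 and Slpi) were followed across 6 wounds of mouse dorsal skin. They were taken by gene symbol from the annotation of an Illumina bead array, which gave 10 of 19057 named genes and 17 of 45281 probes. The genes were chosen by their log2 differences in both comparisons, knockdown against control and stabilised against GFP control, so these differences are given as descriptions with no test.

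Kallikreins are secreted serine proteases that are made as inactive precursors in the upper living layers of the epidermis. There they cut the corneodesmosome proteins that hold the outermost dead cells together, so that these cells can be shed, and they also cut antimicrobial peptide and cytokine precursors. Small secreted inhibitors, among them LEKTI, encoded by Spink5, and proteins with a WAP domain, hold such proteases in check and some of them also kill bacteria. In healing skin both the new epidermis and the infiltrating white blood cells are sources of these proteins.

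All wounds were full-thickness, from mice of C57/BL6 background, and were harvested at day 8 after injury. In the adenovirus experiment the mice carried floxed alleles of exon 3 of the beta-catenin gene Ctnnb1. The virus brought Cre recombinase in the stabilised wound or GFP in the control wound, with 1 array each, both at 2 months of age. Loss of exon 3 gives a beta-catenin that escapes degradation. In the tamoxifen experiment all mice carried floxed exons 2 to 6 of Ctnnb1 and all were given tamoxifen. The 2 knockdown wounds came from mice that also carried Cre-Esr1, a Cre that tamoxifen activates, and the 2 control wounds from mice without it. Replicate 1 of each of these groups was aged 5 months and replicate 2 was aged 2 months, so age and replicate number cannot be told apart. The labels name no promoter for Cre-Esr1, and RNA came from the whole wound, so fewer cells of a type and less RNA per cell cannot be told apart.

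Between 15217 and 16656 probes were detected on an array, where a probe counted as detected at a detection p under 0.01. The brightest of 4 Ctnnb1 probes read 11.93 and 11.86 on the knockdown arrays against 12.04 and 11.48 on the tamoxifen controls, and 11.40 on the stabilised against 11.49 on the GFP array, on the log2 intensity scale. These values do not check the labels, because the position of each Ctnnb1 probe along the transcript was not known. Keratinocyte and fibroblast markers were detected on all 6 arrays, with all 8 measured basal keratinocyte markers and all 7 dermal fibroblast markers above the detection limit on each. The values below are the deposited normalized log2 intensities of the brightest probe of each gene, and levels of different genes are not compared, since probes differ in brightness.

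All 10 genes passed the filter on low signal in both comparisons, and each kallikrein was detected on all 6 arrays. Wfdc12 and Slpi were also detected on every array. Wfdc3 was detected on 4 arrays, and was not well above background on the stabilised array or on knockdown replicate 1.

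**Figure D1:**
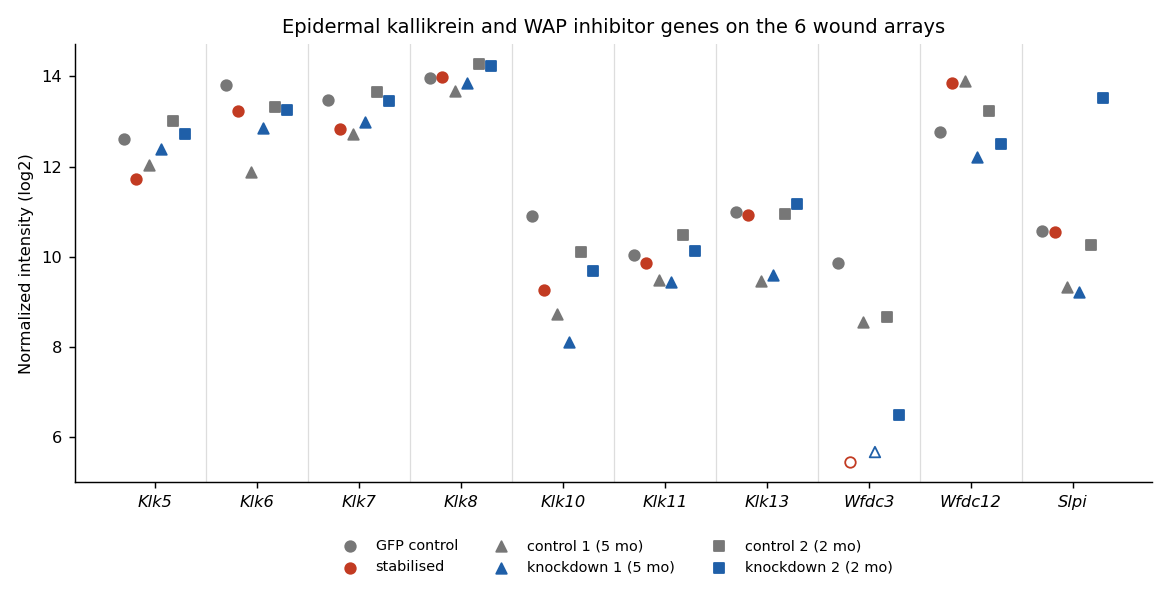
Normalized log2 intensity (vertical axis) of the brightest probe of each of the 10 genes on the 6 arrays. Each point is 1 array, and open points mark a detection p of 0.01 or more. The kallikreins lie lower on the 5-month arrays (triangles) than on the 2-month tamoxifen arrays (squares), Wfdc3 is low on the stabilised and knockdown arrays, and Slpi is high on knockdown replicate 2.

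The kallikreins differed together with the age of the tamoxifen mice. All 7 read higher on both 2-month arrays than on both 5-month arrays, where 15.6% of the 9851 genes tested did so and 25.9% read lower on both. These shares are not quite a like background. The 33.1% of genes whose knockdown and control groups did not overlap could fall in neither share, and none of the 7 kallikreins was among them. The median difference of the kallikreins was 0.84 on the log2 scale, beside -0.05 over all genes tested. When any 1 tamoxifen array was left out, the median lay between 0.56 and 0.95. The count cannot fall when an array is left out, so it was not checked in this way. This age contrast was chosen after the values were seen, with 2 arrays at each age, and was not tested.

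Klk13 and Klk10 had the widest age differences. Klk13, a trypsin-like kallikrein, read 9.46 on control and 9.59 on knockdown replicate 1, against 10.96 and 11.17 on the replicates 2. The 2 pairs by age lie apart and the genotypes within each age lie close, and the 2-month wounds averaged 2.90-fold above the 5-month wounds. The 2 other probes of Klk13 gave age differences of 1.33 and 1.54 on the log2 scale. Klk10, whose human counterpart was first described as a gene lost in breast cancer cells, read 8.73 on control and 8.11 on knockdown replicate 1, against 10.10 and 9.68 on the replicates 2. The 2-month wounds averaged 2.77-fold above the 5-month wounds, and 3 of the 10 genes, Klk10, Klk13 and Slpi, were past 2-fold without overlap, as 1.09% of all genes tested were. Slpi was so by its value on knockdown replicate 2, described with the inhibitors. Genes whose knockdown and control groups did not overlap, Wfdc3 and Wfdc12 among them, could not be counted here either.

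Klk6, also known as neurosin, read 11.87 on control replicate 1, the lowest of the 6 arrays, 12.86 on knockdown replicate 1, and 13.31 and 13.26 on control and knockdown replicate 2. Its age difference was therefore wide in the controls, at 1.44 log2, and narrow in the knockdown wounds, at 0.39. Klk11, a trypsin-like kallikrein, read 9.48 and 9.44 on control and knockdown replicate 1 and 10.48 and 10.13 on replicate 2. The 2 other Klk11 probes had age differences of 1.00 and 1.02, the dimmer of them with 3 arrays above the detection limit.

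The remaining 3 kallikreins moved less. Klk5, a trypsin-like protease that can activate Klk7 and starts the cascade in the outer epidermis, read 12.04 and 12.38 on control and knockdown replicate 1 and 13.01 and 12.73 on replicate 2. Klk7, the chymotrypsin-like enzyme of the stratum corneum, read 12.73 and 13.00 on control and knockdown replicate 1 and 13.66 and 13.47 on replicate 2. Klk8, also called neuropsin, was the steadiest of the 7, with 13.67 and 13.87 on control and knockdown replicate 1 and 14.28 and 14.22 on replicate 2, and its range over all 6 arrays was 0.61 log2.

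**Figure D2:**
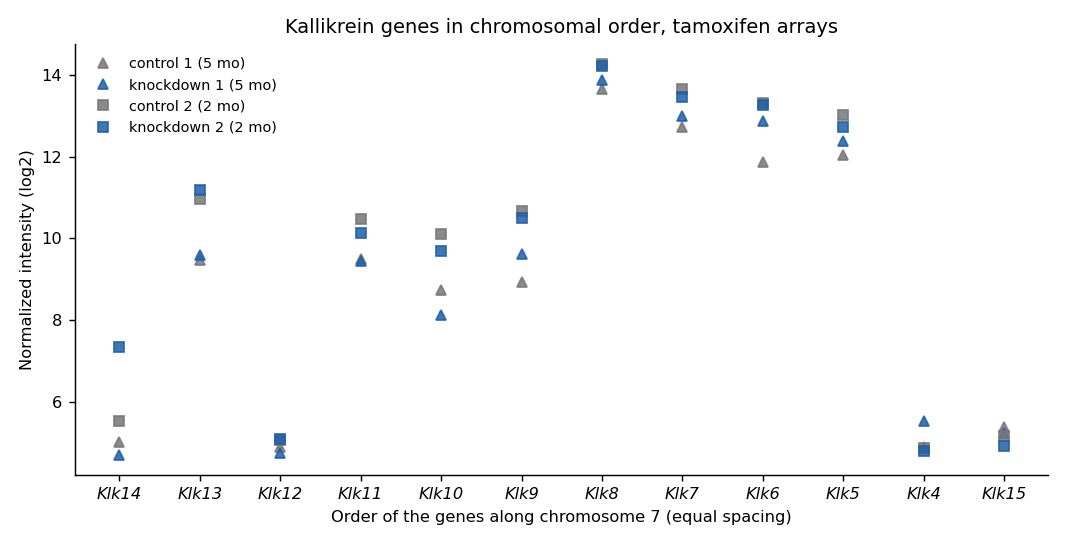
Normalized log2 intensity (vertical axis) of 12 kallikrein genes, placed in their order along mouse chromosome 7 with equal spacing (horizontal axis), on the 4 tamoxifen arrays. Triangles are 5-month and squares 2-month wounds, with controls in grey and knockdown in blue. The 7 genes followed here and Klk9 have both squares above both triangles. So do Klk14, not well above background on either control array, and Klk12. Klk12, Klk4 and Klk15 were not detected on any array.

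In the RefSeq gene order of assembly GRCm38.p6 the 7 kallikreins stand in 1 run on chromosome 7, with Klk12 and Klk9 among them, Klk14 at one end and Klk4 and Klk15 at the other. Of those 5 neighbours, Klk9 was detected on all 6 arrays and Klk14 on 3. Klk9 read 8.94 and 9.62 on control and knockdown replicate 1 and 10.68 and 10.49 on replicate 2, an age difference of 1.31. Klk14 was not well above background on either tamoxifen control array, and read 7.33 on knockdown replicate 2. Klk12, Klk4 and Klk15 were not well above background on any array, so the run holds expressed and undetected genes side by side.

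The age difference was not particular to the kallikreins. Of 14 measured granular and cornified layer markers, 11 were higher on both 2-month arrays, with a median of 0.55, and of 10 tested epidermal proteases 8 were, with a median of 0.62. All 3 tested protease inhibitors (Spink5, Spint1 and Serpina12) were higher too. Of 8 basal keratinocyte markers 0 were, although their median was 0.50. All 8 read lower on both knockdown than on both control arrays, so this age count could only be 0. Their mean was 10.86 and 11.32 on knockdown replicates 1 and 2, and 11.77 and 12.23 on control replicates 1 and 2. Neutrophil markers had a median of 1.86 with 4 of 7 tested higher, sebaceous gland markers 0.95 with 2 of 5, and keratinocyte markers of the wound edge 0.88 with 3 of 8. Markers without overlap between knockdown and control could not be counted in these lists either. They were 5 wound-edge, 2 sebaceous gland and 2 neutrophil markers, 1 macrophage marker, and 1 higher and 2 lower granular and cornified markers. The counts therefore do not rank the lists by age difference. The neutrophil mean was highest on knockdown replicate 2, at 9.995 against 8.11 on control replicate 2. Of that list, Retnlg, Csf3r and Mpo read lower at 2 than at 5 months in the controls. Dermal fibroblast markers had a median of -0.30 with 0 of 7 higher, and macrophage markers a median of -0.30 with 0 of 8 higher. Whether the share of epidermis in the harvested wound accounts for any of this was not tested.

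The promoters of Klk13 and Klk10 are shown for the kallikreins with the widest age differences. Each is the 250 bases before the transcription start in RefSeq's GRCm38.p6 table, printed 5′ to 3′ on the gene's strand, with capitals at matches to TTNNGNAA, a C/EBP type motif. The window of Klk13 holds 2 matches and that of Klk10 holds 0, so it is all in lower case.
Klk13 (chr7:43712317-43712566, plus strand): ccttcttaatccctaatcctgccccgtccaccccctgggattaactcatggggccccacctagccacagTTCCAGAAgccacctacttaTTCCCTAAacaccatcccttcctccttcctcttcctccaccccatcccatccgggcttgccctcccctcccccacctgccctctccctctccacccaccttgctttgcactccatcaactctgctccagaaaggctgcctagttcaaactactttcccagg
Klk10 (chr7:43780804-43781053, plus strand): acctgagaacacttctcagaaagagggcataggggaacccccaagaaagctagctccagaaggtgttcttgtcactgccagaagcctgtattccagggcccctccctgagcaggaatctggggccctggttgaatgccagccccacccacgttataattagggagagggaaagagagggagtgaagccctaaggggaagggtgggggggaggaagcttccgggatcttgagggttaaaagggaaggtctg
All 10 genes were matched in that table, with 12 windows in all. Both strands were searched for 4 motifs, picked with the expression values known. TTNNGNAA was found in 6 of the 12 windows and in 36.8% of all 32851 promoters. The genes with a match were Klk6, Klk11, Klk13, Slpi and Wfdc12, with 1 overlap in Klk11 between TTNNGNAA and CTTTGT. The AP-1 motif TGANTCA was found in 0 of the 12 windows and in 6.75% of all promoters. A match describes letters in a window and is not evidence of binding.

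The comparison of knockdown with tamoxifen control wounds asked how wounds differ when beta-catenin is reduced before the injury. Limma called 0 of 9851 genes (0%) at an adjusted p under 0.05, with 434 at an unadjusted p under 0.05 and a smallest adjusted p of 0.264, and so none of the 10 genes. The groups overlapped for all 7 kallikreins and Slpi, and did not for Wfdc3 and Wfdc12, nor for 33.1% of all genes. Both genes were lower by at least 2-fold, as were 1.37% of all genes without overlap, and 0 of the 10 were higher by that much without overlap, as were 0.406%. The median difference of the 10 genes was 0.04 on the log2 scale, beside 0.01 over all genes, and it was -0.56 when knockdown replicate 2 was left out and 0.44 when control replicate 2 was. Because this contrast was in view when the genes were chosen, nothing is read from these counts.

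For the kallikreins the knockdown minus control differences ran from -0.52 for Klk10 to 0.46 for Klk6. Klk10 averaged 8.90 ± 1.11 in knockdown and 9.42 ± 0.97 in control wounds, and Klk6 averaged 13.06 ± 0.28 and 12.59 ± 1.02 (SD, n = 2 each). Klk5, Klk7, Klk8 and Klk13 differed by 0.03, 0.04, 0.07 and 0.17, and Klk11 by -0.19. In all 7 the groups overlapped and the difference was smaller than the pooled SD of the replicates, which differ in age and whose SD ran from 0.35 for Klk8 to 1.09 for Klk13. Within the pairs of equal age the sign of the difference changed for Klk5, Klk6, Klk7, Klk8 and Slpi, 5 of the 10 genes, as it did for 44.7% of all genes.

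**Figure D3:**
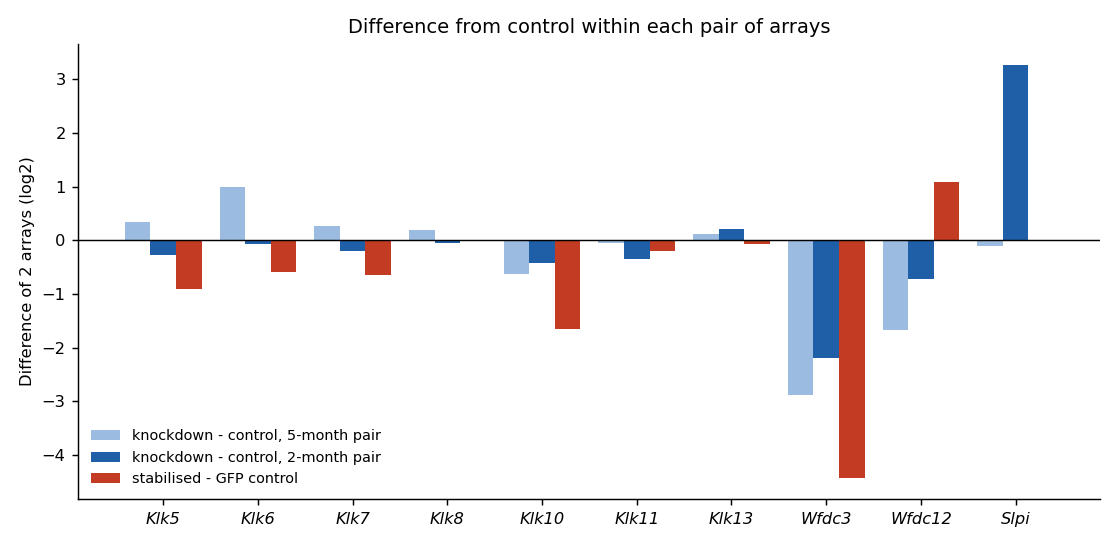
Log2 difference from control (vertical axis) for each gene within 3 pairs of arrays, namely knockdown minus control at 5 months, knockdown minus control at 2 months, and stabilised minus GFP control. Each bar is the difference of 2 arrays and has no error. Bars of the kallikreins lie between -1.65 (Klk10, stabilised pair) and 0.99 (Klk6, 5-month pair), Wfdc3 is lower in all 3 pairs (not well above background on the knockdown array at 5 months and on the stabilised array), and Slpi reaches 3.27 in the 2-month pair.

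Wfdc3, a little-studied protein of the WAP family, showed the widest gap between the groups. It read 5.67 and 6.49 on the knockdown arrays against 8.55 and 8.67 on the tamoxifen controls, and 5.44 on the stabilised against 9.87 on the GFP control array. All 3 control arrays of the series were high and all 3 arrays of altered beta-catenin were low. Knockdown averaged 6.08 ± 0.57 and control 8.61 ± 0.08 (SD, n = 2 each), a log2 difference of -2.53 or 5.78-fold lower, with 1 of the 2 knockdown arrays above the detection limit. With the other at that array's lowest detected signal, the difference was at least 4.92-fold. On the stabilised array, where it was not well above background, Wfdc3 was at least 11.9-fold lower than on the GFP control. Within the pairs, Wfdc3 was at least 5.33-fold lower in knockdown at 5 months and differed by -2.19 log2 at 2 months. With no background correction and quantile scaling the knockdown difference shrank to -1.46 and the stabilised difference to -2.74. A second Wfdc3 probe was not well above background on any array and cannot check the first, and the mean of both probes gave -1.31 and -2.18.

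Wfdc12, also known as SWAM2, an antibacterial member of the family, differed in opposite directions in the 2 experiments. It read 12.22 and 12.51 on the knockdown arrays and 13.89 and 13.23 on their controls, so the groups did not overlap. Knockdown averaged 12.37 ± 0.20 against 13.56 ± 0.47 (SD, n = 2 each), a log2 difference of -1.19 or 2.29-fold lower, with -1.67 in the 5-month and -0.72 in the 2-month pair. On the stabilised array it read 13.85 against 12.77 on the GFP control, 2.11-fold higher. Its values on the stabilised array and on control replicate 1 lay close, and those on the GFP array and knockdown replicate 2 did too. Without control replicate 1 the knockdown difference was -0.86. Unlike the kallikreins, Wfdc12 was not higher in the 2-month wounds, with an age difference of -0.19.

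Slpi, the secretory leukocyte protease inhibitor, which blocks neutrophil elastase and cathepsin G and is made by keratinocytes and white blood cells, stood out on 1 array. It read 13.53 on knockdown replicate 2 and 9.22 on knockdown replicate 1, against 9.33 and 10.26 on the controls and 10.57 and 10.55 on the GFP and stabilised arrays. Knockdown therefore averaged 11.38 ± 3.05 against 9.80 ± 0.65 (SD, n = 2 each), a difference of 1.58 that is smaller than the spread of the knockdown replicates. Leaving out knockdown replicate 2 turned it to -0.57, and leaving out knockdown replicate 1 made it 3.74, so replicate 2 decides the value and its sign. In the stabilised pair the difference was -0.02.

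The promoters of the 3 WAP inhibitor genes are shown beside the values of these genes. Capitals in the window of Wfdc3 mark CTTTGA, a core of the Tcf/Lef motif through which beta-catenin acts, and capitals in the others mark TTNNGNAA. The printed windows are from the same table and of the same length as above.
Wfdc3 (chr2:164743268-164743517, minus strand): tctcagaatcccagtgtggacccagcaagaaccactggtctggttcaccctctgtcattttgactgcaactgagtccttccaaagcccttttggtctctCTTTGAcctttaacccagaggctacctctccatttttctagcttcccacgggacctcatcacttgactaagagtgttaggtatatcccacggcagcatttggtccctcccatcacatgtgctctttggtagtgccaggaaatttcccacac
Wfdc12 (chr2:164190559-164190808, minus strand): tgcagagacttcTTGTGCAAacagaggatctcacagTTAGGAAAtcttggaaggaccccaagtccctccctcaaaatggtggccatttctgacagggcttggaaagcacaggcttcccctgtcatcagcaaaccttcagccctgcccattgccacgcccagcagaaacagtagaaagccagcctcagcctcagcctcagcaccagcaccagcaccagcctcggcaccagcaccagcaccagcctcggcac
Slpi (chr2:164356508-164356757, minus strand): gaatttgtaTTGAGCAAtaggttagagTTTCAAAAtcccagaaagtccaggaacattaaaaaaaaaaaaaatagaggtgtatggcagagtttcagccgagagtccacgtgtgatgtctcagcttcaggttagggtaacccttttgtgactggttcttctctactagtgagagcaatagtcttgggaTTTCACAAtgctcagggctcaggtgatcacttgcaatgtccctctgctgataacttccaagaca
CTTTGA was found on either strand in 1 of the 12 windows, that of Wfdc3, and in 13.8% of all promoters. The variant CTTTGT was found in 2 windows, of Klk6 and Klk11, and in 16.5% of all promoters. CTTTGA and CTTTGT differ in their last letter and cannot match at the same bases of a strand, and neither match shows a bound site.

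**Figure D4:**
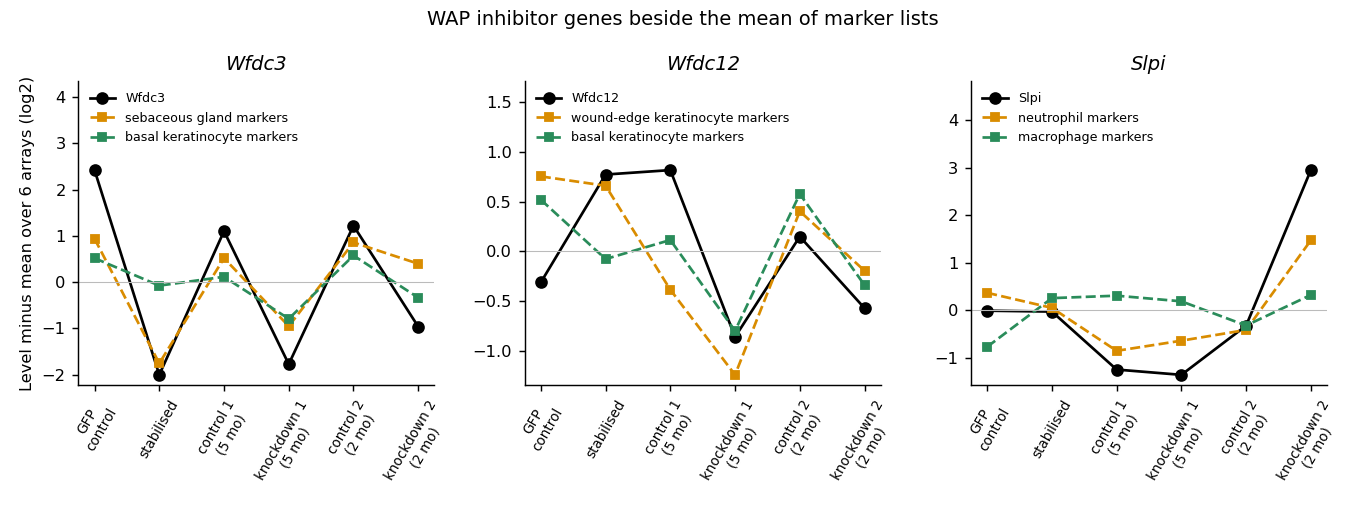
Log2 level minus its mean over the 6 arrays (vertical axis) for Wfdc3, Wfdc12 and Slpi (black) beside the mean of marker lists (dashed), by array. Wfdc3 and the sebaceous gland markers are both lowest on the stabilised array, where Wfdc3 was not well above background. Wfdc12 is highest on the stabilised array and control 1. Slpi and the neutrophil markers are both highest on knockdown replicate 2.

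Markers of other cell types moved with Wfdc3 and Slpi over the 6 arrays, less so with Wfdc12, and also with kallikreins. As a description, Wfdc3 had an r of 0.869 with the mean of the sebaceous gland markers and 0.833 with that of the basal keratinocyte markers. Slpi had 0.964 with the neutrophil markers, and the highest r of Wfdc12 with any of the 9 lists was 0.457, with the basal markers. Wfdc3 also had -0.755 with the macrophage and Slpi -0.706 with the dermal fibroblast markers. The r of the kallikreins ran from -0.955 for Klk13 with fibroblast markers to 0.828 for Klk10 with wound-edge markers. Such values are thus not particular to the WAP genes. The 5 measured sebaceous gland markers averaged 10.26 on the GFP control, 7.57 on the stabilised array, 8.37 and 9.72 on the knockdown arrays, and 9.84 and 10.18 on their controls. They were thus lowest on the same 2 arrays as Wfdc3, the stabilised array and knockdown replicate 1. Wfdc3 was not detected on either, and 2 and 3 of the 5 sebaceous gland markers were, in that order. Both r values of Wfdc3 therefore rest in part on background signal. The 5 measured hair follicle markers had their highest mean, 7.85, on the GFP control array. Their means on the rest lay between 5.07 and 5.63, below each array's lowest detected signal. Of these 5 markers, 2 were detected on the stabilised array, 0 on either knockdown array, and 2 and 1 on control replicates 1 and 2. Of the 11 with a probe, 6 were detected on 0 arrays. In the knockdown comparison the groups did not overlap, in either direction, for 33.1% of all genes. Basal keratinocyte markers were lower in knockdown in all 8 measured members, with a median of -0.996 and groups that did not overlap in 8 of 8. Their mean ran from 10.86 to 11.32 on the knockdown arrays and from 11.77 to 12.23 on the controls, so their means were ordered by group as Wfdc3 and Wfdc12 were. In the stabilised pair their median was -0.21, where Wfdc12 was higher by 1.08. Of 8 keratinocyte markers of the wound edge 5 were lower in knockdown without overlap, with a median of -0.75, and their stabilised median was -0.08. Of 8 skeletal muscle markers 6 were lower without overlap, with a median of -1.98, and the stabilised median of the 5 compared was -2.67. On the stabilised array 1 of these 5 was detected, so the stabilised median rests in part on background signal. The part of these markers in the values of Wfdc3 and Wfdc12 was not tested.

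Beside Slpi, 8 measured neutrophil markers had a mean of 9.995 on knockdown replicate 2, above the means of 7.67 to 8.89 elsewhere. The granule genes Elane, Camp, Ngp and Mmp8 were not detected on any array, and the list also holds S100a8, S100a9 and Lcn2, which keratinocytes make too. Il1b, a cytokine whose precursor Klk7 can cut, read 13.70 on knockdown replicate 2 and 8.67 on knockdown replicate 1, against 8.24 and 7.77 on the controls. Its limma difference was 3.18 with an adjusted p of 0.976. The mean of the 8 measured macrophage markers did not follow Slpi, with 10.08 on knockdown replicate 2, 9.95 on knockdown replicate 1 and an r of 0.119. Single markers differed from their list means. Cd14 read 13.32 on knockdown replicate 2 and 9.56 to 10.80 elsewhere, while Cd163 read 7.51 there and 6.90 to 8.97 elsewhere. Of the neutrophil markers, Mpo read 6.31 on knockdown replicate 2 and 7.34 on knockdown replicate 1, against 6.33 and 5.46 on the controls. The part of white blood cells in the Slpi value was not tested.

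In the adenovirus pair, 8 of the 10 genes read lower on the stabilised than on the GFP control array, with a median of -0.39 beside 0.05 over all 9991 genes compared. Wfdc3 and Klk10 were at least 2-fold lower, as 4.89% of all genes were, and Wfdc12 was at least 2-fold higher, as 2.76% were. There is 1 array per group, so these differences have no replicate check. Klk10 read 9.26 against 10.91, 3.14-fold lower, and the GFP control was its highest array of the 6. Klk5 read 11.72 against 12.62 and was lower on the stabilised array than on any other. Klk7 read 12.84 against 13.49, Klk6 13.23 against 13.82, and Klk11 9.86 against 10.05. Klk13 and Klk8 differed by -0.06 and 0.02. Under median scaling with no background correction, the median over all genes moved from 0.05 to -0.11 and the split of genes past 2-fold from 276 higher and 489 lower to 58 and 295, and the 10 genes had a median of -0.51.

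The partners of these proteins were measured with lists chosen in the same way. Of the 3 kallikrein and membrane protease inhibitors tested, 0 passed in knockdown wounds (0 of 10 epidermal proteases and 0 of 5 substrates did either). As 0 of all 9851 genes passed, these counts say nothing particular to the lists. Spink5, which encodes the kallikrein inhibitor LEKTI, read 7.11 and 7.86 in knockdown and 7.59 and 8.29 in control wounds, a log2 difference of -0.46 with an adjusted p of 0.976 in limma. Spint1, an inhibitor of the membrane protease matriptase, differed by -0.50, and St14, which encodes matriptase, by -0.42, each with an adjusted p of 0.976. Serpina12, an inhibitor of Klk7, differed by 0.21, with an adjusted p of 0.983. All 4 had overlapping groups.

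Prss27, a serine protease of stratified epithelia, was the single gene of 11 epidermal proteases past 2-fold in the adenovirus pair. It read 8.96 on the stabilised and 10.79 on the GFP control array, a difference of -1.83 beside -1.65 for Klk10. The list's median there was -0.49. Among the substrates, Dsg1b, which encodes a desmoglein, differed by -0.45 in knockdown and 0.66 in the stabilised pair, and Dsc1, a desmocollin, by -0.24 and -0.10. Of the genes listed as targets or partners of Slpi, Elane, Ctsg and Prtn3 were not detected on any array. Grn, whose product Slpi protects from elastase, differed by 0.11 in knockdown with an adjusted p of 0.983 in limma. Of the 22 other genes listed with a WAP domain, 17 had a probe and 6 were tested, with 0 passing, as 0 of all 9851 genes did. Wfdc17, expressed in macrophages, read 12.06 and 12.46 in knockdown against 12.05 and 11.81 in control wounds, and Wfdc5 differed by -0.33.

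Over the 6 arrays the kallikreins varied together more than they did with the inhibitors. As a description with no test, all 21 kallikrein pairs had a Pearson r above 0, from 0.384 for Klk5 and Klk13 to 0.924 for Klk5 and Klk7, with a median of 0.737. The 21 pairs of a kallikrein with a WAP gene ran from -0.587 to 0.719 with a median of 0.343, and 13 were above 0. Wfdc12 had an r below 0 with each of the 7 kallikreins. The 6 points share age and experiment, so these correlations and the differences above come from the same values.

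The 10 genes whose profile over the 6 arrays was most like the mean of the members were Pard3, Fam110c, Grhl3, Tmprss13, S100a14, Hopx, Cldn23, Chil1, Dusp8 and Sik1, with r from 0.936 to 0.970 among 2212 genes compared. Grhl3 is a transcription factor of the epidermal barrier, and read 7.46 and 7.36 on control and knockdown replicate 1 and 9.06 and 8.70 on replicate 2. Tmprss13, a membrane serine protease of the epidermis, read 10.77 and 10.58 on control and knockdown replicate 1 and 11.45 and 11.15 on replicate 2. Their order by age is the one the likeness to the members selects. For single members, by the same measure and chosen after the values were seen, Klk8 was closest to Rptn, which encodes the cornified envelope protein repetin (r = 0.995), and Klk6 to Sprr2d, a small proline-rich protein of that envelope (r = 0.979). Wfdc3 was closest to Krt24, a keratin gene that read 8.004 on the GFP control, 7.07 and 7.10 on the tamoxifen controls and 4.55 to 4.94 on the 3 other arrays (r = 0.992). On those 3 arrays Krt24 lay below the lowest detected signal, which was 6.05 to 6.30, so this r rests in part on background signal. Slpi was closest to Hcar2, a receptor of neutrophils and keratinocytes among other cells, which read 13.02 on knockdown replicate 2 and 8.996 to 10.30 elsewhere (r = 0.997).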

How the data were processed

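Biotin-labelled total RNA of 6 wounds was measured on Illumina bead arrays, per the labels. Each probe has a mean bead intensity and a detection p-value per array in the deposited table of unnormalized signals, per the file headers. The deposited log2 values have equal quantiles on every array and lie within 0.0874 of limma's neqc on those intensities (offset 16). R 2.14 is the one tool in the submitters' processing notes, and no source used here names the normalization. Lines of stray text, 2 in all, were dropped. Gene names came from the platform annotation (34885 probes with 1 symbol, 18 with several, 10378 with none), and 0 symbols changed through gene identifiers in RefSeq. Probe sequences were not used, so reading of related kallikreins by 1 probe was not checked.

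The deposited log2 values were used, with the brightest probe per gene. Detection was a p-value under 0.01. A gene entered the knockdown fit when 2 or more of the 4 tamoxifen arrays detected it, with limma 3.58.1 in R 4.3.3 (1 mean per group, 2 residual degrees of freedom, two-sided, Benjamini-Hochberg over all genes, adjusted p under 0.05). An exact permutation of 2 against 2 cannot give a p below 0.333. For stabilised against GFP control, genes detected on at least 1 array were compared from 2-fold. For a gene below detection on every array of a group, the bound is the bright mean minus the higher of that array's lowest detected signal and the probe's own value. Checked on simulated data of 9851 genes with 50 changed at each of 4 sizes in the knockdown design, limma recovered 10% of changes of 2-fold, 76% at 4-fold, 82% at 8-fold and 96% at 16-fold, with 4 false calls. These rates hold for the simulated data only. On the arrays, Krt2 was lower by 4.48 log2 in knockdown without overlap and had an adjusted p of 0.976 in limma.

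The members and lists were chosen with earlier results of these data known. Named genes are the 10 members, up to 4 genes of each list by size of the knockdown difference, and the 10 genes closest by Pearson r to the mean centred profile of the members (detected on at least 3 arrays, with a range of at least 1 log2). Others were named after their values were seen. Replicate number matches age in the labels, and the differences of replicate 1 minus 2 in the 2 tamoxifen groups correlated at 0.126 across genes. The labels call the replicates biological without naming animals, so p-values reflect the spread of these arrays, and any 2 arrays shared at most 2 identical signals. Alternatives covered background correction, scaling, probe choice, detection limit, variance model, replicate block and each array left out.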

Additional observations from a re-analysis of the deposited data

Results flagged for a closer look

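For 5 of the 10 genes, the difference between knockdown and control pointed one way in the 5-month pair and the other way in the 2-month pair, as it did for 44.7% of all 9851 genes tested. Each pair is 1 array against 1, and the change of sign was not tested. Slpi differed by -0.11 at 5 months and 3.27 at 2 months. Klk6 differed by 0.99 at 5 months and -0.057 at 2 months. Klk5 differed by 0.34 and -0.28, Klk7 by 0.27 and -0.19, and Klk8 by 0.20 and -0.054, at 5 and 2 months in that order.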

How the results depend on the processing

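Of 130 member values under other processing, 60 equal the reported value because the detection limit, the replicate block in a balanced design or a single probe cannot change a gene's difference. Of the other 70, 64 lay within 1 replicate SD, which includes age. The 6 that moved more were all of Wfdc3, which kept its sign with no background correction (knockdown difference -1.46 with quantile and -1.48 with median scaling, stabilised difference -2.74 and -2.82) and with the mean of its probes (-1.31 and -2.18). With each array omitted in turn, the Slpi knockdown difference lay between -0.57 and 3.74 and the knockdown median of the 10 genes between -0.56 and 0.44. The same fits called 0 to 7 genes, the 7 without knockdown replicate 1, with Il1b and none of the 10 genes among them, where the remaining knockdown array was taken to vary as the controls do. With the replicate block, which stands for age, 0 genes passed and 746 had an unadjusted p under 0.05, with 1 residual degree of freedom, and the block changed no other call. Genes past 2-fold in the stabilised pair numbered 97 higher and 214 lower with quantile scaling and no background correction, and 58 and 295 with median scaling. The age count of 7 of 7 kallikreins held under the other background correction, scaling and probe choice, and leaving out an array cannot lower it. Over all 8 alternatives run, which were chosen after seeing the data, the kallikrein age median lay from 0.56 to 0.95. The number of arrays limits every value, and signals near the detection limit, such as Wfdc3 on the stabilised array, are bounds only.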
